A study of Mus musculus with 18 samples.

Results

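The Myc and Pim families were described here through 7 genes, Myc, Mycn, Max, Mxi1, Pim1, Pim2 and Pim3, and every probe set that the annotation of the chips pairs with a member as its single gene was taken. This gave 11 of the 36701 probe sets that are not controls, 6 for the MYC family and 5 for the PIM family. Of these, 10 lie on the chip U74Av2, 1 on U74Cv2 and 0 on U74Bv2. The STAT3-MER group was made of 3 dishes of a clonal ES cell line from FVB/N embryos that carry a STAT3-MER transgene under a chicken β-actin promoter, kept with 1 µM OHT and without LIF. The WT group was made of 3 dishes of FVB/N ES cells without the transgene, kept with 1000 units per ml of LIF. In STAT3-MER the coding region of mouse STAT3 is joined to a changed hormone-binding domain of the estrogen receptor, and 4-hydroxytamoxifen (OHT) switches the protein on. Genotype, LIF and OHT differ together, so their parts in a difference cannot be told apart. Both lines were derived on embryonic feeder fibroblasts, each group is a single line, and each dish was hybridized to the 3 chips, which makes 18 arrays. The age of the cells in passages was not given in the sources used here.

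MYC and MYCN are transcription factors that bind DNA as dimers with MAX and raise the output of genes for growth, nucleotide synthesis and ribosome assembly. MXI1 competes for MAX and brings a repressing complex to the same E-box sites, so the balance of the partners sets the activity of the network. The PIM proteins are serine/threonine kinases without a regulatory domain, whose activity follows their amount and which favour survival and translation. In mouse ES cells Myc, Pim1 and Pim3 are known as targets of LIF and STAT3, and the comparison sets their transcripts under the activated transgene against those under LIF.

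Promoter windows, from 250 bases before to 50 bases after a start site, were taken from RefSeq (GRCm38.p6) for Mycn, Max, Mxi1, Pim1, Pim2 and Pim3, 6 of the 7 genes and 9 windows in all, and that of Myc was not analysed here. They were searched for the E-box CACGTG, which MYC with MAX binds, and for the STAT motif TTCNNNGAA with its stricter form TTCCNGGAA, a part of the former. Each motif reads the same on both strands. An E-box was found in 1 window of Max, at position -3 from the start site (the first transcribed base counted as 0), and in 1 of the 2 windows of Pim1, at position -58. None of these 9 windows held either STAT motif. Over all 32851 windows of the same length the E-box stood in 7.15%, TTCNNNGAA in 8.30% and TTCCNGGAA in 1.15%. The upstream part of 3 windows is given 5′ to 3′, with E-box letters in capitals: that of Pim3, whose groups stood apart in signal, and those of Max, run on to the end of its E-box, and Pim1.
Pim3, chr15:88861944-88862193, plus strand: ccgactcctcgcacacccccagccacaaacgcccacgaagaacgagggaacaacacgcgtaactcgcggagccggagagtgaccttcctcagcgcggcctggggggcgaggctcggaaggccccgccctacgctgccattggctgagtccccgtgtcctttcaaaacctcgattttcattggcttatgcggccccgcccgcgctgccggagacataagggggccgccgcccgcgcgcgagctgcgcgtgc
Max, chr12:76962246-76962498, minus strand: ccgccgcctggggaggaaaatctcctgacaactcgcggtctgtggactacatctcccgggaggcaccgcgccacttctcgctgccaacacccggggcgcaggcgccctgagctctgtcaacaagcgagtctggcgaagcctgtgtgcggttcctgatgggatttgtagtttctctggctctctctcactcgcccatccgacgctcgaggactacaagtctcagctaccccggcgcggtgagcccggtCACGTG
Pim1, chr17:29492835-29493084, plus strand: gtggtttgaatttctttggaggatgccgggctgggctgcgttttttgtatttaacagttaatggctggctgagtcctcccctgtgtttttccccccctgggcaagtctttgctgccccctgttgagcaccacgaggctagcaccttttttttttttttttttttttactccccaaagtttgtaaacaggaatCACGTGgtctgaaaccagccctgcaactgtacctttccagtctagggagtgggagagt
A match is a description of the letters and says nothing about binding in these cells. Pim3 lies at chr15:88862194-88865726, Pim1 at chr17:29490785-29496111 and Pim2 at chrX:7878306-7883432 of GRCm38.p6. Myc lies at chr15:61985341-61990361, Mycn at chr12:12936093-12941836, Max at chr12:76937269-76962323 and Mxi1 at chr19:53310128-53373293.

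As a check of the transgene, Esr1, the estrogen receptor gene whose hormone-binding domain is part of the fusion, gave signals of 25848, 25568 and 31548 in STAT3-MER cells, against 40.3, 19.7 and 9.25 in WT cells. This was the single call over all probe sets (limma, log2 fold change 9.01 ± 0.24 (SE), adjusted p = 7.5767e-06), so that 0.00272% of those tested were called higher and 0% lower. The 8 ES cell markers summed to signals of 40793, 36441 and 44903 in STAT3-MER dishes and to 39484, 41292 and 32668 in WT dishes. Single markers varied more than this sum, some in opposite directions. Pou5f1 gave 6533, 3562 and 8348 in STAT3-MER dishes and 2157, 5824 and 5054 in WT dishes. Nanog gave 8404, 11228 and 10689 in STAT3-MER dishes and 14179, 7593 and 7035 in WT dishes. Utf1, like Pou5f1, was lowest of its group in STAT3-MER dish 2 and WT dish 1, where Nanog and Sox2 were highest. The sum of the feeder fibroblast markers varied more between dishes than that of the ES cell markers. The 13 measured ones summed to 11864, 50892 and 36185 in STAT3-MER dishes and to 45329, 19280 and 45644 in WT dishes, a 4.29-fold range on U74Av2. STAT3-MER dish 1 held the lowest value of 11 of these 13 markers. On U74Av2 the deviations from the group means ran together between STAT3-MER dish 2 and WT dish 1 (r = 0.46) and between STAT3-MER dish 1 and WT dish 2 (r = 0.41), and against each other between dishes 1 (r = -0.30) and between dishes 2 (r = -0.33). On U74Bv2 and U74Cv2 the dishes of the same number ran together (r from 0.07 to 0.21), so it is not certain that a number 1 or 2, in either group, means the same dish across chips. The U74Av2 array called STAT3-MER dish 2 carries no replicate number and took the number that was free in its group.

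No member passed the test for a difference between STAT3-MER and WT cells, and for all but Pim3 the dishes of the groups overlapped. With limma on log2(signal + 32), 0 of the 11 probe sets passed an adjusted p of 0.05, with an adjusted p of 0.99958 for each, and 0 reached an unadjusted p under 0.05, against 3.45% of all probe sets. Fold changes on the log2 scale lay between -0.38 for Pim2 and 0.36 for Pim3, 4 above 0 and 7 below, with a median of -0.10, against 0.01 over all probe sets. Signals of the groups did not overlap for 1 of 11 probe sets, that of Pim3, which was higher in STAT3-MER cells, and 4.5% of all probe sets were apart in that direction and 3.63% in the other. The criteria named in the study's methods, a ratio over 1.5, a difference over 100 and p under 0.1 in the methods' t-test, were met by 0 members, while 1.1% of all probe sets met them as higher and 0.872% as lower. The intervals of the differences were wide, and they are given for each gene.

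**Figure D1:**
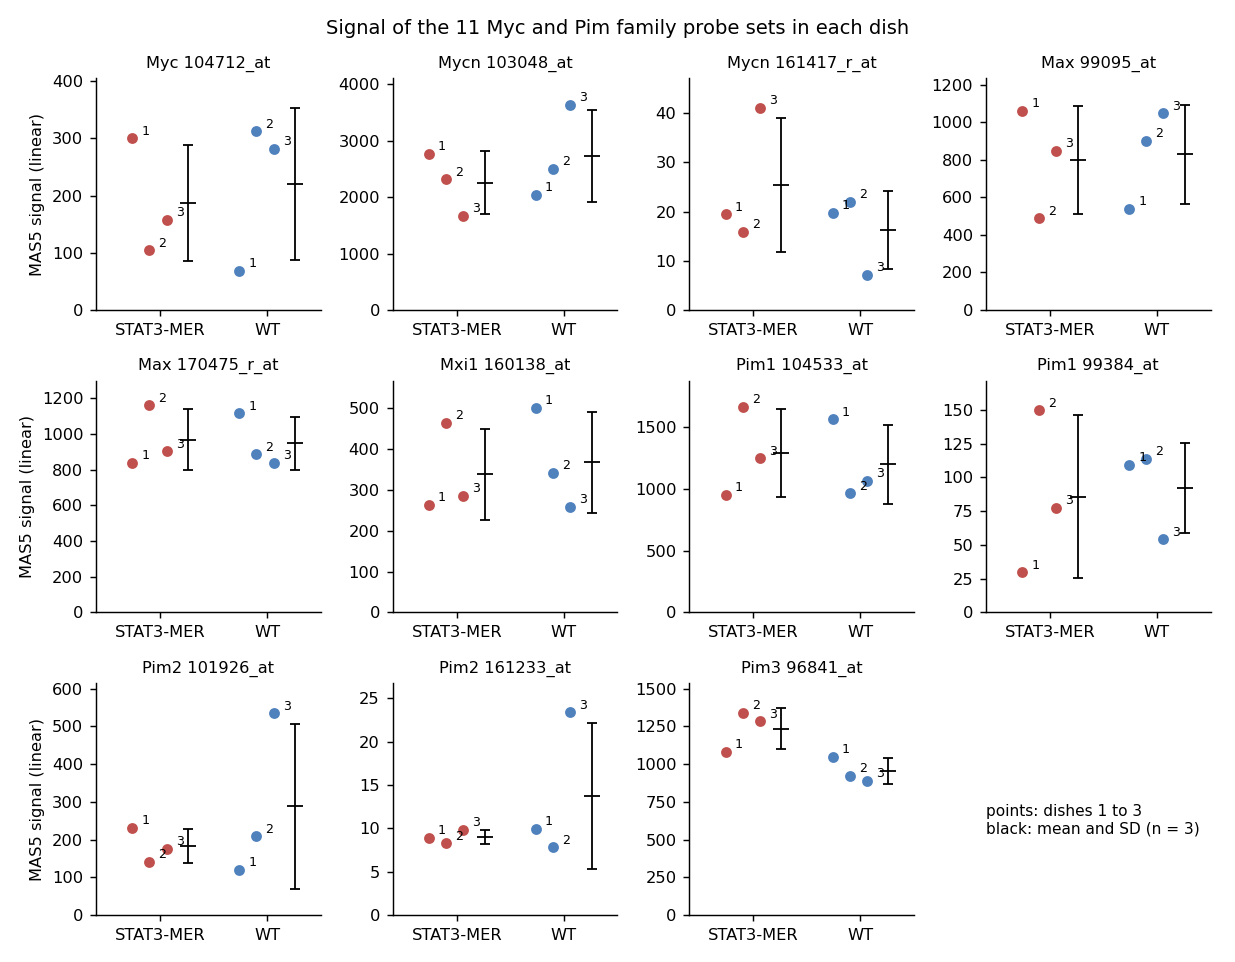
MAS5 signal (linear scale, from 0) of the 11 probe sets in STAT3-MER dishes (red, left) and WT dishes (blue, right); numbers name the dishes and black bars give the mean and SD of 3. The groups overlap in every panel but that of Pim3, where the STAT3-MER dishes lie at 1080 to 1339 and the WT dishes at 891 to 1051.

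**Figure D2:**
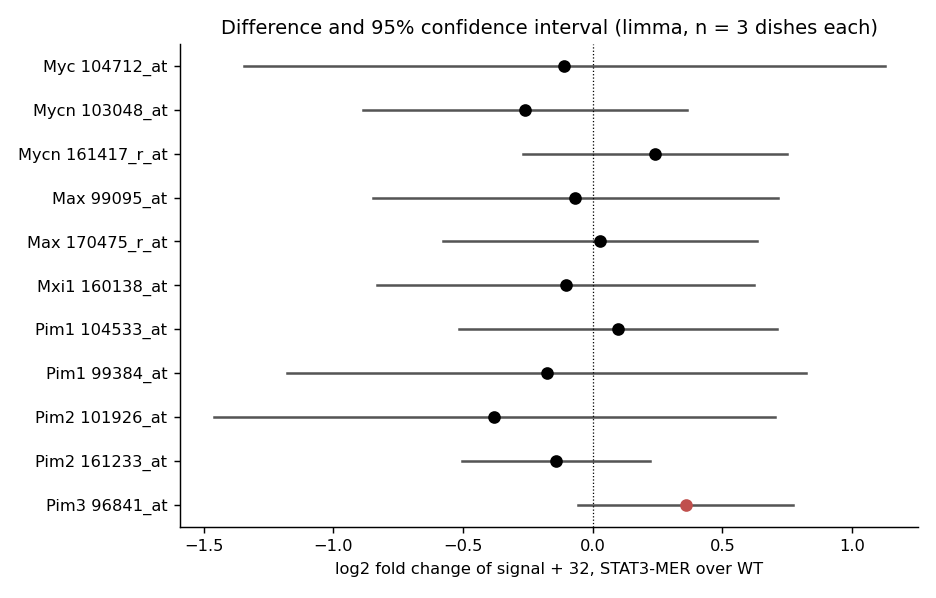
Log2 fold change of signal + 32, STAT3-MER over WT, with its 95% confidence interval from limma, 3 dishes in each group; the red point is Pim3, whose groups did not overlap. Every interval includes 0, and that of Pim3 runs from -0.06 to 0.77.

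Myc was measured by 104712_at. Its signal was 300.3, 104 and 158 in STAT3-MER dishes and 68.0, 312 and 282 in WT dishes. The lowest and the highest of the 6 signals were both from WT dishes, and the values spanned a 4.59-fold range. The log2 fold change was -0.11 ± 0.54 (SE, n = 3 dishes each), and its 95% interval, -1.34 to 1.13, reached past a ratio of 2 in both directions.

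Mycn, the family member known for its part in embryonic and neural progenitors, gave signals of 2773, 2318 and 1665 on 103048_at in STAT3-MER dishes and of 2040, 2499 and 3632 in WT dishes. WT dish 3 was highest and STAT3-MER dish 3 lowest, and the other 4 dishes lay between them. On the log2 scale the difference was -0.26 ± 0.27 (SE), with an interval from -0.89 to 0.36. A second probe set for Mycn, 161417_r_at, whose suffix marks possible cross-hybridization, was dim, with 19.5, 15.8 and 41.1 in STAT3-MER dishes and 19.8, 21.9 and 7.19 in WT dishes. It gave the opposite sign, 0.24 (interval -0.27 to 0.75).

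Max, the shared partner of the network, was measured on 2 chips. On 99095_at its signal was 1059, 489 and 846 in STAT3-MER dishes, against 538, 899.8 and 1047 in WT dishes, and the dishes of the groups were interleaved in rank. The log2 fold change was -0.07 ± 0.34 (SE), with an interval from -0.85 to 0.72. On 170475_r_at of U74Cv2 the signals were 839.5, 1161 and 902 in STAT3-MER dishes and 1115, 887 and 839.8 in WT dishes, with a log2 fold change of 0.03 ± 0.27 (SE; interval -0.58 to 0.63). With the dish numbers in doubt between chips, the 2 probe sets were not joined dish by dish.

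Mxi1, the repressing partner of MAX, gave 263, 464 and 284 on 160138_at in STAT3-MER dishes and 500.4, 341 and 258 in WT dishes. The highest and the lowest signals were those of WT dishes 1 and 3. Its log2 fold change was -0.10 ± 0.32 (SE), with an interval from -0.83 to 0.62.

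Among the kinases, Pim1 on 104533_at gave 955, 1666 and 1249.9 in STAT3-MER dishes and 1565, 966 and 1069 in WT dishes. Both the highest and the lowest signal were from STAT3-MER dishes. This probe set gave a log2 fold change of 0.10 ± 0.27 (SE; interval -0.52 to 0.71). The second probe set of Pim1, 99384_at, was dimmer, with 29.8, 149.5 and 77.3 in STAT3-MER dishes and 109, 114 and 54.1 in WT dishes, and its log2 fold change was -0.18 (interval -1.18 to 0.82).

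Pim2, the X-linked member of the family, gave 231, 141 and 175 on 101926_at in STAT3-MER dishes and 119.9, 208 and 535 in WT dishes. WT dish 3 stood far above the other 5, and without it the log2 fold change turned to 0.14. With all dishes it was -0.38 ± 0.47 (SE; interval -1.46 to 0.70). Its second probe set, 161233_at, lay between 7.81 and 23.4 in all 6 dishes, highest again in WT dish 3, with a log2 fold change of -0.14 (interval -0.50 to 0.22).

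Pim3 was the member with the smallest p. Its signal on 96841_at was 1080.1, 1339 and 1285 in STAT3-MER dishes, against 1051, 921 and 891 in WT dishes. Every STAT3-MER dish was above every WT dish, by little for STAT3-MER dish 1 and WT dish 1. The means were 1235 ± 137 in STAT3-MER cells and 954 ± 84.9 in WT cells (SD, n = 3 each), a ratio of 1.29. The log2 fold change was 0.36 ± 0.18 (SE), with an interval from -0.06 to 0.77, an unadjusted p of 0.0809 in limma and an adjusted p of 0.99958. The methods' t-test gave an unadjusted p of 0.0493, but the ratio stayed under 1.5. The interval in fold terms ran from 0.96 to 1.71. With the summed feeder signal as a covariate, a fit chosen after the data were seen, the log2 fold change was 0.39 ± 0.17 (SE). Its unadjusted p in limma was 0.0525 and its adjusted p 0.99972. Over the 6 dishes, with the group difference left in, Pim3 and the feeder level gave r = 0.25 and rho = 0.14. The exact permutation p was 0.65 and 0.803, and the adjusted p 0.819 and 0.892 over 10 probe sets. Without STAT3-MER dish 1 and WT dish 2, the farthest in feeder level, r was -0.14. Among STAT3-MER dishes Pim3 and the feeder level had the same order. Among WT dishes, dish 3 was highest in feeder level and lowest in Pim3. The relation with the group means taken out was not tested. The r over the 6 dishes therefore does not show how closely Pim3 followed the feeder level within the groups.

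The members varied together between dishes on U74Av2, across both groups. Over the 6 arrays Myc and Max went together (r = 0.91), and so did Pim1 and Mxi1 (r = 0.82). Myc ran against Pim1 (r = -0.96) and against Mxi1 (r = -0.83), and Max against Pim1 (r = -0.95) and Mxi1 (r = -0.95). Max stands here for 99095_at, and its other probe set, 170475_r_at on U74Cv2, did not show the same pattern. In each group its highest dish bore the number of the lowest dish on 99095_at. WT dish 3 was the highest WT dish on 99095_at and the lowest on 170475_r_at. Dish numbers are in doubt between chips. With the group means taken out, Pim3 joined Pim1 (r = 0.93, against 0.63 with the group difference left in) and ran against Myc (r = -0.92). Mycn and Pim2 were alike (r = 0.82), both highest in WT dish 3. These values are descriptions over 6 arrays that share their amplification, hybridization and cell mixture, and were given no test. STAT3-MER dish 2 and WT dish 1, which deviated together over the whole chip, were the low dishes of Myc and Max (99095_at) and the high dishes of Pim1 and Mxi1.

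No relation between a member and the feeder level passed its test over the 6 dishes, with the group difference left in. Pim1 on 104533_at followed the summed feeder signal with r = 0.77 and rho = 0.83 over the 6 dishes (exact permutation p = 0.0833 and 0.0583, adjusted p = 0.509 and 0.583 over 10 probe sets), and with r = 0.47 without STAT3-MER dish 1 and WT dish 2. Myc ran against it with r = -0.68 and rho = -0.66 (exact permutation p = 0.153 and 0.175, adjusted p = 0.509 and 0.583), and with r = -0.23 without these dishes. WT dish 3 broke the pattern, with a feeder signal of 45644 and a Myc signal of 282. With the feeder level as a covariate the log2 fold change was -0.29 for Myc, -0.17 for Max, -0.04 for Mxi1 and 0.19 for Pim1, and 0 members were called. The part of feeder RNA in the levels of the members was not tested further. In RNA of whole dishes, fewer cells of a type and less RNA per cell cannot be told apart.

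**Figure D3:**
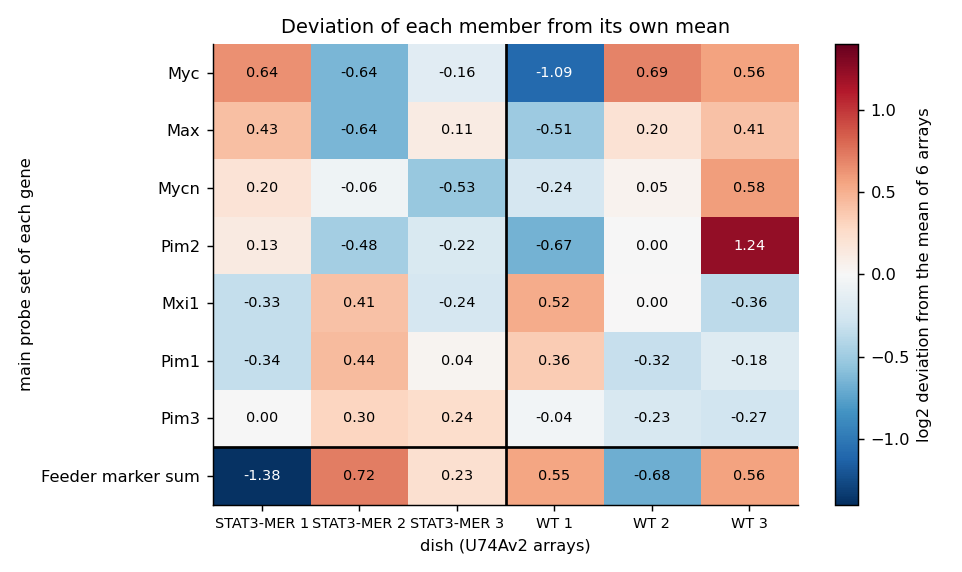
Log2 deviation of each gene's main U74Av2 probe set from its mean over 6 arrays (colour and number), STAT3-MER dishes left of WT dishes, with the summed signal of the feeder markers on the log2 scale in the bottom row. Myc and Max are below their means in STAT3-MER dish 2 and WT dish 1, where Mxi1 and Pim1 are above theirs.

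The genes around the members were read in 4 lists, with 1 probe set for each gene. Of the 15964 genes measured, 1.62% were higher and 1.31% lower at an unadjusted p under 0.05, and 4.02% and 3.50% had groups apart in these directions, with a median log2 fold change of 0.004. In the list of MYC partners and network genes, 14 of 14 were measured, 0 passed the adjusted threshold, 1 was lower at an unadjusted p under 0.05, and the median was -0.07. Of the MYC cofactors and turnover genes 17 of 18 were measured, 0 reached either threshold, and the median was -0.10. Of 29 measured MYC target genes of 30 listed, 0 reached either threshold (median -0.04), and the same held for 14 of 14 PIM substrates (median -0.01). Groups were apart for 1 gene each of the partners (Mga), the cofactors (Huwe1) and the MYC targets (Hspe1), each lower in STAT3-MER cells, and for 0 PIM substrates. Hspe1, a mitochondrial chaperonin named after its values were seen, gave 6857, 6745 and 6955 in STAT3-MER dishes and 7156, 7567 and 7478 in WT dishes, a log2 fold change of -0.11 (adjusted p of 0.99958 in limma).

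The gene with the smallest p of the network list was Mga, which encodes a large MAX partner that also holds a T-box and that is known in mouse ES cells for silencing germline genes. On 166407_at of U74Cv2 its signal was 1744, 634 and 1241 in STAT3-MER dishes, against 2756, 2983 and 1823 in WT dishes. The groups did not overlap. The log2 fold change was -1.12 ± 0.37 (SE) with an unadjusted p of 0.014 in limma. After adjustment it was 0.99958, and the methods' criteria were met. A second Mga probe set of this chip, 166075_r_at, whose suffix also marks possible cross-hybridization, was apart in the same direction, with 876, 911 and 708 in STAT3-MER dishes and 1714, 1213 and 1150.3 in WT dishes (log2 fold change -0.67, with an unadjusted p of 0.0335 and an adjusted p of 0.99958 in limma). The 2 remaining probe sets of Mga gave 0.26 (106524_at, on U74Bv2) and, at dim signals of 14.4 to 91.4, 0.48 (134391_at). Both had overlapping groups, so the probe sets of this gene did not run one way. Mxd1, a repressing MAX partner like MXI1, came next, with 342, 196 and 452 in STAT3-MER dishes and 169, 269 and 44.3 in WT dishes on 163320_at (log2 fold change 1.05, adjusted p of 0.99958 in limma), while its other probe sets gave -0.36 and, at signals of 4.86 to 9.26, -0.06. Tfap4, a helix-loop-helix factor that MYC induces, followed with a log2 fold change of -1.01 (interval -2.74 to 0.72). Its probe set 167407_i_at carries a suffix for possible cross-hybridization, and its STAT3-MER signals ran from 32.9 to 532. Mlxip, a partner of MLX, came after it with -0.53, and both genes had overlapping groups.

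Among the cofactors, Huwe1, a ubiquitin ligase that acts on MYC, had groups apart on its main probe set 96664_at, with 1815, 1628 and 1627 in STAT3-MER dishes and 1915, 2061 and 2178 in WT dishes (log2 fold change -0.28, unadjusted p of 0.127 and adjusted p of 0.99958 in limma). It did not meet the methods' criteria there. Another probe set of Huwe1, 168445_r_at, with a suffix for possible cross-hybridization, was apart the other way and met these criteria as higher. Its log2 fold change was 1.05 (interval 0.02 to 2.07, unadjusted p of 0.0461 and adjusted p of 0.99958 in limma). The dim Huwe1 probe sets 95938_at and 131666_at gave 0.31 and 0.12 with overlapping groups, so no direction can be given for this gene. Aurka, a kinase that stabilizes MYCN, followed with a log2 fold change of 0.25, then the ATPase Ruvbl2 with 0.31 and Wdr5, a chromatin cofactor of MYC, with 0.22, all with overlapping groups. Of the MYC targets the smallest p-values were those of Gart, an enzyme of purine synthesis (-0.27), Bop1, a ribosome assembly factor (0.33), Shmt2, the mitochondrial serine hydroxymethyltransferase (-0.32), and Cdc25a, a cell cycle phosphatase (-0.20), and these 4 had overlapping groups. Among the PIM substrates, the stress-activated kinase Map3k5 gave a log2 fold change of -0.55, and the chemokine receptor Cxcr4, at signals between 2.49 and 30.5, gave 0.34. Eif4ebp1, a brake on translation that PIM kinases release, gave 0.20, and Cdc25a stood in this list too. Other probe sets had the opposite sign for Map3k5 (0.13, 99855_at), Cdc25a (0.43, 97389_at, and 0.15, 135624_f_at) and Ruvbl2 (-0.17, 167710_i_at). All of these but 135624_f_at had mean signals under 100, and 135624_f_at and 167710_i_at carry a suffix for possible cross-hybridization. The second probe sets of Bop1 (0.31) and Shmt2 (-0.21) had the same sign as the main ones.

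**Figure D4:**
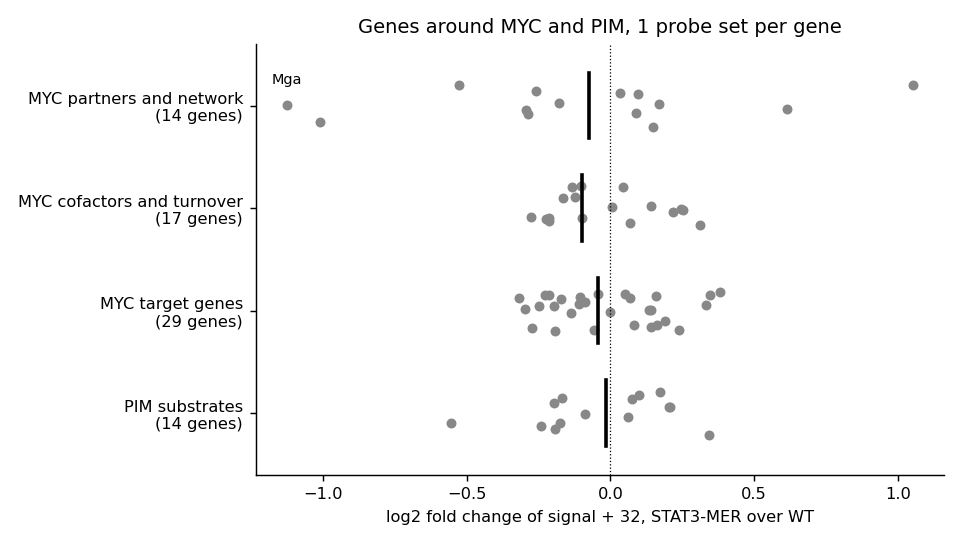
Log2 fold change of signal + 32, STAT3-MER over WT, of each measured gene (grey points) in the 4 lists, with the median of each list as a black line; the vertical scatter has no meaning. The medians lie between -0.10 and -0.01, and Mga is the lowest point at -1.12.

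The probe sets most like each member over the 6 arrays of U74Av2 were searched among those with a mean signal of at least 500, 3124 or 3125 for each member. Pim3 ran closest with Hk2 (r = 0.99), Brox (r = 0.99) and Ppp1r15b (r = 0.98). Hk2, the hexokinase of glycolysis, gave 2463, 3280 and 3038 in STAT3-MER dishes and 2377, 1852 and 1938 in WT dishes, with the same order of dishes as Pim3 but for WT dishes 2 and 3. Pim1 ran closest with Grina, Thap4 and Uqcrc2, Myc with Twf2, Atxn7l3 and Polr2j, and Max with Gtpbp4, Kansl2 and Btf3, all at r over 0.99. Mxi1 ran closest with Ago2, Clk3 and Slc44a1 (r = 0.99 for each), Pim2 with Hspa14, Csnk2a1 and Cmpk1 (r from 0.98 to 0.99), and Mycn with Marchf6, Klf6 and Mapk8 (r from 0.95 to 0.96). These values describe 6 arrays after a wide search and carry no test.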

How the data were processed

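RNA of 3 dishes of each group was amplified in 2 rounds and hybridized to U74Av2, U74Bv2 and U74Cv2. The authors deposited 1 linear signal intensity per probe set and array. MAS5 is named in the submitters' processing notes without a version, and the trimmed mean of each array lay between 500.1 and 500.3. The files carry no detection call, and the number of arrays limits the precision. The dChip values of the study were not used here.

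Each array was scaled to the mean trimmed mean of its chip after 2% of the signals were cut at either end, and log2(signal + 32) was compared in R 4.3.3 with limma 3.58.1, using lmFit, then eBayes with its trend option. Each chip had its own fit, tests were two-sided, and p-values were adjusted by Benjamini-Hochberg over 36701 probe sets with a threshold of 0.05. Since 1.5 is stated as an upper bound for one direction in the methods, it was read as a minimum. The form of the methods' t-test was not given in the sources used here, and unequal variances were allowed. Fold changes of dim probe sets are understated by the added 32. Dishes were cultivated separately, but each group is 1 line, so p-values measure the spread between dishes.

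Gene names come from the chip annotation, updated through RefSeq of GRCm38.p6. For lists, 1 probe set per gene was used, without a cross-hybridization suffix where possible and then the brightest. The text names every member probe set, Esr1, the 4 genes of each list with the smallest p and the 3 probe sets most like each member. Hspe1, Pou5f1, Utf1, Nanog, Sox2 and further probe sets of Mga, Huwe1, Mxd1, Map3k5, Cdc25a, Ruvbl2, Bop1 and Shmt2 were added after their values were seen. The members and lists were chosen with earlier results of these data known. Alternatives were quantile, median and no further scaling, pseudocounts of 8 and 100, a minimum mean signal of 100, no variance trend, adjustment per chip, the replicate number as a block, dropping each dish, equal variances or logs in the methods' t-test, a ratio of 2 and averaging a gene's probe sets. The fit was run on simulated arrays with independent noise and changes, in bright probe sets, far larger than those of the members. It therefore does not show whether differences of the members' size could be found. Figures were drawn with matplotlib 3.10.9.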

Additional observations from a re-analysis of the deposited data

How the results depend on the processing

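The count of 0 member probe sets past the threshold held under every alternative run, with an adjusted p of 0.997 or more for each member in limma, and so did the count of 0 members under the methods' criteria. The counts of 0 in the 4 lists held as well, but were not taken with the feeder covariate or with the probe sets of a gene averaged. Of the values of member probe sets under alternatives, 155 kept their sign and 17 turned, 16 of these with a dish left out. The settings without a variance trend, with a minimum mean signal of 100, with adjustment per chip and with the replicate block cannot change the log2 fold change of a probe set. Their part of the 155 kept its sign by construction. Signals as deposited changed the values very little, since the arrays already had nearly equal trimmed means. The sign was kept under every alternative for 3 of 11 probe sets, those of Pim3 (0.30 to 0.45) and Mycn, though the size for Mycn hung on single dishes. With each dish left out in turn, the log2 fold change of Myc ran from -0.68 to 0.21, that of Mycn on 103048_at from -0.45 to -0.03 (-0.03 without WT replicate 3) and on 161417_r_at from 0.05 to 0.36, that of Max on 99095_at from -0.34 to 0.24, that of Max on 170475_r_at from -0.11 to 0.15, that of Mxi1 from -0.34 to 0.13, that of Pim1 on 104533_at from -0.10 to 0.30, that of Pim1 on 99384_at from -0.56 to 0.22, that of Pim2 on 101926_at from -0.81 to 0.14 and that of Pim2 on 161233_at from -0.23 to 0.0050. Max on 170475_r_at turned to -0.047 under median scaling. The cause was not tested. Over all probe sets, the count called higher was between 1 and 2 with a dish left out (2 without WT replicate 3), and a ratio over 2 left 234 higher and 197 lower under the methods' criteria, against 405 and 320. The list medians were close to 0 and each changed sign under some alternative. They ran from -0.18 to 0.04 for the MYC partners, from -0.10 to 0.04 for the cofactors, from -0.13 to 0.14 for the MYC targets and from -0.18 to 0.05 for the PIM substrates, whose -0.18 came with a minimum mean signal of 100. With the replicate number as a block, 1 probe set over all chips and 0 members were called. Such a block cannot change a log2 fold change when each number stands once in each group, so that of Pim3 stayed 0.36 by construction. No source ties the numbers to a batch. Taken as deviations from the group means, the dishes numbered 3 ran together on U74Av2 (r = 0.29), and those numbered 1 and 2 did not (-0.30 and -0.33). On U74Bv2 and U74Cv2 the deviations of every dish correlated best with those of its own number in the other group. This block may therefore not join matching dishes on U74Av2. The dim probe sets of Mycn, Pim1 and Pim2 have mean signals under 100, where a difference is hard to measure.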
